A study of Mus musculus with 6 samples.

Results

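The genes described here are 10 receptors and intracellular signal carriers of the TGF-beta and BMP pathways, measured by bulk RNA sequencing in aortic smooth muscle cells of mice. They are Tgfbr1, Tgfbr2, Tgfbr3, Bmpr1a, Bmpr2, Smad2, Smad3, Smad4, Smad6 and Smad7. They were chosen by name, by their place in the pathway, with earlier results of these data known. All 10 are among the 20199 genes of the deposited count table, and all 10 passed the filter on low counts that left 15185 genes for testing. Cells came from the aorta of mice of strain C57B6 at 12 weeks of age. The 3 control libraries have the genotype WT/mTmG/ Myh11ERT2 and the 3 knockout libraries the genotype miR-21fl/flmTmG/Myh11ERT2, so that controls and knockouts alike carry mTmG (a reporter that switches fluorescent colour on Cre action) and Myh11ERT2 (an inducible recombinase driven from the smooth muscle myosin heavy chain gene). The floxed allele is built to lose miR-21, a microRNA, in cells where the driver is active; its level was not analysed here, so the deletion itself was not checked. The sources used here do not state whether induction took place, how cells were kept or which animal gave each library, so p-values measure the spread between libraries, part of which may be technical.

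TGF-beta ligands bind a type II receptor, TGFBR2, which recruits and phosphorylates the type I receptor TGFBR1. The type I receptor phosphorylates SMAD2 and SMAD3, which join SMAD4 and enter the nucleus. BMP ligands act in the same manner through BMPR2 and type I receptors such as BMPR1A, and their signal runs through SMAD1, SMAD5 and SMAD9. SMAD6 and SMAD7 are inhibitory, and their genes are themselves switched on by the pathway. In the aorta the pathway governs the contractile state and matrix production of smooth muscle, and inherited defects of TGFBR1, TGFBR2 and SMAD3 lead to aortic aneurysm.

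Library totals ran from 17123748 to 28610649 counts. The lowest count of any of the 10 genes in any library was 269 (Smad3) and the highest was 10721 (Bmpr1a). One library, wild-type replicate 1, lay far from the rest, at −58.1 on the first principal component (40.6% of the variance) against 1.53 to 27.3 for the other 5, so each gene's difference is given with and without it. The cells carried smooth muscle markers in every library, with 12 contractile genes summing to between 51969 and 59759 CPM (counts scaled to library size by TMM). Markers of macrophages summed to at most 10.9 CPM, with Ptprc, Adgre1, C1qa, C1qb and C1qc under 1 CPM throughout. Endothelial markers summed to between 117 and 137 CPM in wild-type libraries and 119 and 152 CPM in knockout libraries, where 4 of 10 (Cdh5, Kdr, Tie1 and Emcn) stayed under 1 CPM. The 7 endothelial markers that could be tested all had a higher fitted mean in knockout, against 49.9% of all genes. Their median log2 fold change was 0.26, with 0 called by edgeR and 0 at an unadjusted p under 0.05. Of these, Tie1, Tek and Egfl7 had at most 16, 31 and 26 counts in any library. Without wild-type replicate 1, 7 of 9 tested endothelial markers were higher, with a median of 0.16. The part of endothelial markers in the receptor differences was not tested. Markers of adventitial fibroblasts, all 10 of which were found in the table, summed to between 161 and 215 CPM in wild-type libraries and 147 and 212 CPM in knockout libraries. Lymphocyte markers stayed under 1 CPM, nerve and Schwann cell markers summed to between 616 and 721 CPM, and striated muscle markers summed to between 26.1 and 29.4 CPM in wild-type libraries and 20.4 and 22.8 CPM in knockout libraries. In bulk RNA, fewer cells of a type and less RNA per cell cannot be told apart.

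None of the 10 genes passed the test between the genotypes. edgeR's quasi-likelihood test, adjusted over all 15185 genes, called 0 of the 10, where the background over all genes was also 0 (0%). At an unadjusted p under 0.05 it listed 0 of the 10, against 955 of all genes (6.29%). DESeq2 called 0 of the 10, against 0.473% of the genes it gave an adjusted p. The fitted mean was higher in knockout for 8 of the 10, with a median log2 fold change of 0.23, against 49.9% of all genes and a median of −0.0008. Without wild-type replicate 1 it was higher for 9 of the 10 with a median of 0.15, against 51.2% of all genes and a median of 0.0053. In that smaller comparison edgeR again called 0 of the 10, against 0.0577% of all genes. Groups did not overlap for 1 of the 10 genes, Smad4, against 14.5% of all genes tested. Because the 10 genes were chosen with earlier results known, the counts of higher means are a description and no test.

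**Figure D1:**
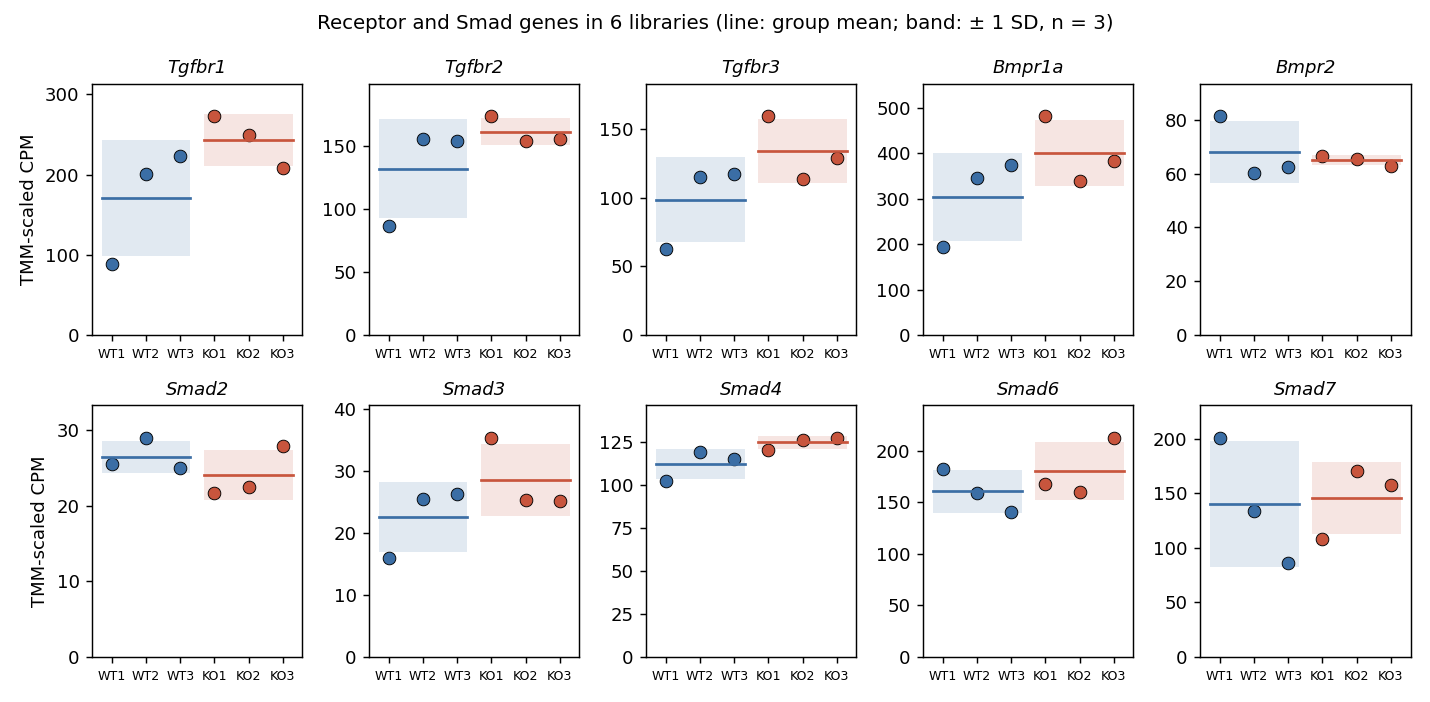
Expression of the 10 genes in each library, in CPM scaled by TMM on axes that start at 0; points are libraries (WT, wild type; KO, knockout), lines are group means and bands are ± 1 SD with n = 3. Tgfbr1, Tgfbr2, Tgfbr3, Bmpr1a, Smad3 and Smad4 are lowest in WT1, and Bmpr2 and Smad7 are highest there.

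Tgfbr1 encodes the TGF-beta type I receptor, the kinase that phosphorylates SMAD2 and SMAD3. The gene lies on chromosome 4 from 47353222 to 47414931 on the plus strand (mm10). Tgfbr1 was at 89.0, 201 and 224 CPM in wild-type replicates 1, 2 and 3 and at 273, 249 and 208 CPM in knockout replicates 1, 2 and 3. The first wild-type library was the lowest by far, and knockout replicate 3 lay between the other two wild-type values, so the groups overlapped. The means were 171 ± 72.2 CPM in wild-type libraries and 243 ± 32.7 CPM in knockout libraries (SD, n = 3 each). The log2 fold change was 0.50 ± 0.29 (SE; edgeR adjusted p = 0.778), and its 95% interval runs from a fold of 0.894 to 2.25. Without wild-type replicate 1 it was 0.19, with an interval from −0.07 to 0.46. Of the 10 genes, Tgfbr1 had the widest range, 3.06-fold between its highest and lowest library, and that range was 1.35-fold among the 5 libraries other than wild-type replicate 1.

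Tgfbr2 encodes the type II receptor, which binds the ligand and starts the kinase relay. It lies on the minus strand of chromosome 9 from 116084293 to 116175360. Tgfbr2 was at 86.3, 155 and 154 CPM in the wild-type libraries and at 173, 154 and 155 CPM in the knockout libraries. The middle and last libraries of both genotypes were thus nearly equal, and what separated the group means of 132 ± 39.5 and 161 ± 10.6 CPM was the low first wild-type library together with the high first knockout library. The log2 fold change was 0.29 ± 0.21 (SE; edgeR adjusted p = 0.782), and 0.06 without wild-type replicate 1, with an interval from −0.15 to 0.26. Among the 5 remaining libraries the highest was 1.13-fold the lowest.

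MiR-21 pairs with messenger RNA through its seed, bases 2 to 8 from the 5′ end, and Tgfbr2 is often named among its targets. The mature microRNA and the seed matches found in the 3′ UTRs of Tgfbr1 and Tgfbr2 are shown because they are the places where loss of the microRNA could act on a receptor directly. The microRNA sequence is RefSeq's (GRCm38.p6, chr11:86584120-86584141, minus strand), with the seed in capitals.

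mmu-miR-21a-5p: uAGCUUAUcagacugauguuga

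The sites come from the longest 3′ UTR of each gene in GENCODE vM1, with the match in capitals. The first in Tgfbr1 covers bases 1958 to 1964 of a 3′ UTR of 4154 bases and pairs with the whole seed (a 7mer-m8 site). The second, at bases 2564 to 2570, pairs with bases 2 to 7 and has an A after the match (a 7mer-A1 site). The site in Tgfbr2, at bases 236 to 242 of 6081, is a 7mer-m8.

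Tgfbr1 first site: tgtatcacctgcttaaATAAGCTcttgtg

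Tgfbr1 second site: ttgtcaataccctggtTAAGCTAgcatga

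Tgfbr2 site: tggagactgtcatggcATAAGCTgtgcta

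Smad7 held 1 match of the longest kind, an 8mer, in 1570 bases of 3′ UTR. The other 7 genes held no 7mer or 8mer in the sequence searched, and Tgfbr3 and Bmpr1a held 1 6mer each. The searched models of Bmpr2 and Smad6 end 374 and 378 bases after the coding sequence, so only these short stretches were searched. The deposited Bmpr2 gene spans 9392 bases more than its model, against 70 for Smad6, so part of the Bmpr2 3′ UTR may have been missed. Over all tested coding genes with a 3′ UTR of at least 20 bases, 1323 of 11009 (12.0%) held a 7mer or 8mer, and among those with 3000 bases or more the share was 32.6%. The genes with a match, Tgfbr1, Tgfbr2 and Smad7, had log2 fold changes of 0.50, 0.29 and 0.06 in the knockout. With wild-type replicate 1 left out these were 0.19, 0.06 and 0.41, and none passed the test in either fit. The matches are a description of the letters in these models and were not tested for function.

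Tgfbr3 encodes betaglycan, a co-receptor that presents TGF-beta to the type II receptor. It spans chromosome 5 from 107106570 to 107289629 on the minus strand. Its values were 62.9, 115 and 117 CPM in wild-type libraries and 159, 113 and 128.8 CPM in knockout libraries. As with Tgfbr1 and Tgfbr2, wild-type replicate 1 was the lowest library and knockout replicate 1 the highest, and the second knockout library lay below the upper pair of wild-type libraries. The means were 98.5 ± 30.8 and 134 ± 23.2 CPM. Tgfbr3 had the smallest unadjusted p of the 10 genes (log2 fold change 0.44 ± 0.23 SE, edgeR unadjusted p = 0.0932, adjusted p = 0.778), which placed it 1805th of all genes tested. With wild-type replicate 1 left out that difference was 0.20, with an interval from −0.09 to 0.50.

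Bmpr1a encodes a BMP type I receptor. It lies on the minus strand of chromosome 14 from 34410734 to 34503341. It was at 194, 346 and 373 CPM in the wild-type libraries and at 481, 339 and 382 CPM in the knockout libraries. The library order was again that of the TGF-beta receptors, with wild-type replicate 1 lowest and knockout replicate 1 highest. The means were 304 ± 96.7 and 401 ± 72.5 CPM, the log2 fold change was 0.40 ± 0.24 (SE; edgeR adjusted p = 0.778), and without wild-type replicate 1 it was 0.16 with an interval from −0.16 to 0.47. With knockout replicate 1 left out it was 0.25. The deposited counts of Bmpr1a and Tgfbr3 were fractional in all 6 libraries, as can happen when reads are divided among features by estimation. How large a part of a count was divided was not examined, so its bearing on these levels is not known. Fractional counts also occurred for Tgfbr1 and Smad4, where 16.7% of the 6 values were whole, for Smad7 (33.3%) and for Tgfbr2 (83.3%). Bmpr2, Smad2, Smad3 and Smad6 had whole counts throughout. Tgfbr3 overlaps 3 features on its own strand, of which Gm43422 had the most counts (4 to 41 per library), and Bmpr2 overlaps Gm38125 (1 to 20 counts). Bmpr1a overlaps Gm17110, an antisense RNA with 18 to 51 counts per library, and the sources used here do not state whether counting used strand.

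Bmpr2, the gene of the BMP type II receptor, on chromosome 1 from 59763400 to 59879014 on the plus strand, did not share that order. It was at 81.3, 60.4 and 62.5 CPM in the wild-type libraries and at 66.6, 65.3 and 62.9 CPM in the knockout libraries. Here wild-type replicate 1 was the highest library and the knockout libraries were close together. The means were 68.1 ± 11.5 and 64.9 ± 1.88 CPM. The log2 fold change was −0.07 ± 0.14 (SE; edgeR adjusted p = 0.909), and it changed sign to 0.08 without wild-type replicate 1, with an interval from −0.11 to 0.27. Leaving out wild-type replicate 2, wild-type replicate 3 or knockout replicate 3 gave −0.14, −0.13 and −0.04. Both fits thus bound any change of Bmpr2 more tightly than that of Tgfbr1. The ratio of Bmpr1a to Bmpr2 counts within a library, which no scaling of libraries can alter, was 2.38 in wild-type replicate 1, 5.72 and 5.97 in the other two wild-type libraries, and 7.22, 5.20 and 6.07 in knockout. The ratio of Tgfbr2 to Bmpr2 behaved alike, at 1.06 in that first library and between 2.36 and 2.599 in the other 5.

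**Figure D2:**
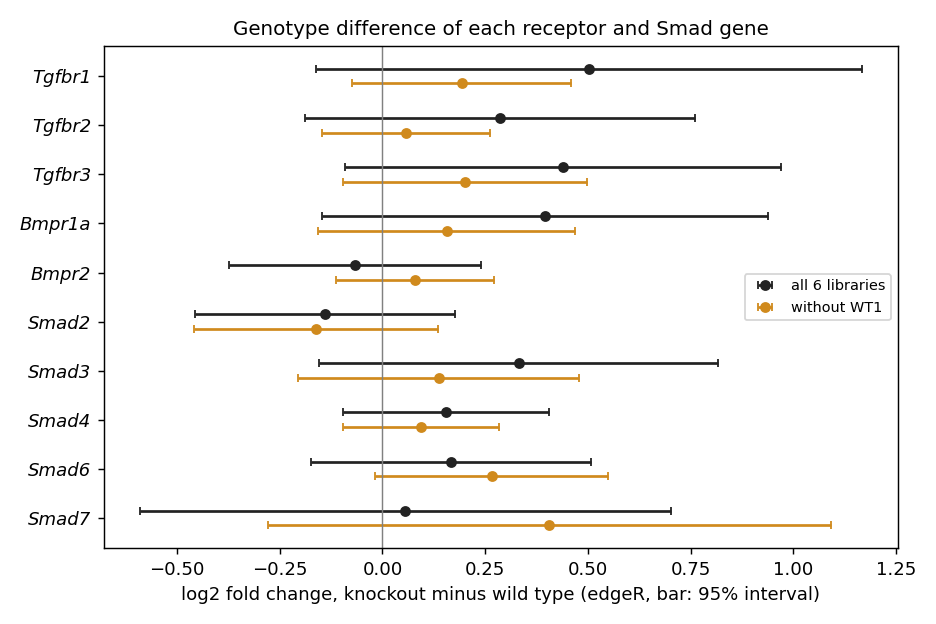
Log2 fold change of each gene, knockout minus wild type, from edgeR with all 6 libraries and again without wild-type replicate 1; points are estimates and bars are 95% intervals. Every interval in both fits includes 0, and the estimates of Tgfbr1, Tgfbr2, Tgfbr3 and Bmpr1a lie nearer to 0 without that library.

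The receptor-regulated Smads had the lowest CPM of the 10 genes, before any division by transcript length. Smad2 and Smad3 encode the proteins that carry the TGF-beta signal to the nucleus, and Smad4 encodes their common partner, shared with the BMP branch. Smad3 lies on chromosome 9 from 63646767 to 63757994. Smad2, Smad4 and Smad7 lie on chromosome 18, from 76241580 to 76305731, from 73639009 to 73703780 and from 75367529 to 75395935. Smad2 was at 25.6, 28.9 and 25.0 CPM in the wild-type libraries and at 21.7, 22.5 and 27.8 CPM in the knockout libraries. Its groups overlapped, and its log2 fold change was −0.14 ± 0.14 (SE; edgeR adjusted p = 0.818). Smad2 was the gene whose fitted mean was lower in knockout both with wild-type replicate 1 and without it (−0.16). The value was −0.26 without knockout replicate 3, −0.07 without wild-type replicate 2 or knockout replicate 1, and −0.09 without knockout replicate 2.

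Smad3 followed the receptors. It was at 15.99, 25.5 and 26.2 CPM in the wild-type libraries and at 35.3, 25.3 and 25.1 CPM in the knockout libraries. Wild-type replicate 1 was lowest and knockout replicate 1 highest, while the other 4 libraries lay between 25.1 and 26.2 CPM. The log2 fold change was 0.33 ± 0.21 (SE; edgeR adjusted p = 0.778). Leaving out either extreme library, wild-type replicate 1 or knockout replicate 1, gave 0.14 or 0.15. The ratio of Smad2 to Smad3 counts was 1.60, 1.13 and 0.955 in wild type and 0.616, 0.890 and 1.11 in knockout, so the groups overlapped in that ratio as well.

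Smad4 had the narrowest spread of the Smads. It was at 102, 119 and 115 CPM in the wild-type libraries and at 121, 126 and 127 CPM in the knockout libraries, so that every knockout library lay above every wild-type library. The gap was small, from wild-type replicate 2 (118.9 CPM) to knockout replicate 1 (120.6 CPM). The means were 112 ± 8.70 and 125 ± 3.59 CPM, a fold of 1.11 with a 95% interval from 0.936 to 1.32 (edgeR adjusted p = 0.781). A 2-sided exact permutation test of log2 CPM gave p = 0.1 for Smad4, the smallest that 3 against 3 libraries allow, and between 0.2 and 1 for the other 9 genes. The log2 fold change was 0.16 ± 0.11 (SE), and 0.09 without wild-type replicate 1.

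Wild-type replicate 1 differed from the other wild-type libraries in a manner that went with transcript length. Among 10592 coding genes with a mean of at least 1 CPM and an annotated transcript length, its level was at a median of 138% of the mean of the other two wild-type libraries for transcripts under 1 kb, 98.1% for 2 to 3 kb and 81.3% for 4 to 6 kb. No other library ranged as far over these length classes. KO3 went from 106.3% to 90.7%, and KO1, compared with KO2 and KO3, rose from 95.025% to 106.4%. WT2 and WT3 took the opposite course to WT1, each being compared with a pair that includes WT1. Across genes the median log2 fold change between genotypes ran from −0.18 for transcripts under 1 kb to 0.13 for those of 6 kb or more, and from −0.02 to 0.06 without WT1.

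Tgfbr1, Tgfbr2, Tgfbr3, Bmpr1a and Smad3 lay lower in WT1 than most genes of their transcript length. The longest annotated transcripts of Tgfbr1, Bmpr1a, Tgfbr3 and Tgfbr2 have 5756, 5956, 6087 and 8088 bases. Tgfbr1 was at 41.9% of the other two wild-type libraries, and 2.48% of genes with transcripts of 4 to 6 kb were lower. Bmpr1a was at 53.9% (9.47% of its class lower), Tgfbr3 at 54.1% (9.57% lower), Tgfbr2 at 55.8% (10.8% lower) and Smad3 at 61.8% (19.3% lower). Smad4 and Smad2, at 87.5% and 94.7%, sat near the middle of their classes. Smad7 went the other way, at 182%, where 98.6% of its class was lower, as did Bmpr2 at 132% (92.3% lower) and Smad6 at 121% (80.9% lower). The part of transcript length in the genotype differences was not tested.

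**Figure D3:**
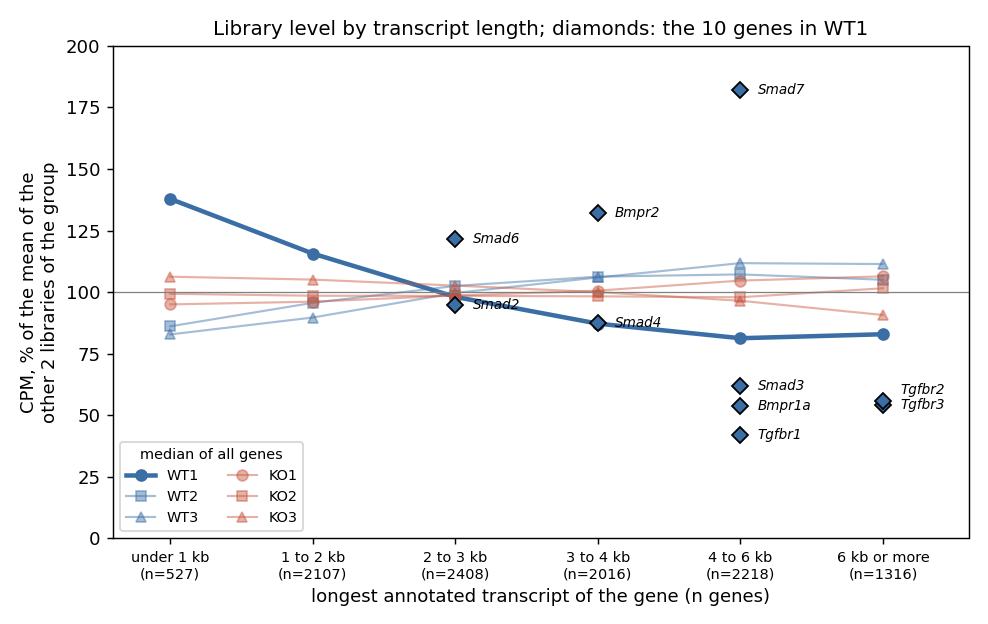
Level of each library as a percentage of the mean of the other two libraries of its group, against the longest annotated transcript length; lines are medians over all genes of a length class, and diamonds are the 10 genes in wild-type replicate 1 (WT1). The WT1 line runs from 138% down to 81.3%; Tgfbr1, Bmpr1a, Tgfbr3, Tgfbr2 and Smad3 lie under it, and Smad7, Bmpr2 and Smad6 lie above it.

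The inhibitory Smads were both expressed at levels similar to the receptors. Smad6 preferentially restrains BMP signals. It lies on chromosome 9 from 63953076 to 64022059 on the minus strand, 195081 bases from Smad3, and the pair did not share a library order. Smad6 was at 182, 159 and 140.9 CPM in the wild-type libraries and at 168, 160 and 212 CPM in the knockout libraries. The groups overlapped, with knockout replicate 3 the highest and wild-type replicate 3 the lowest library. The means were 161 ± 20.6 and 180 ± 28.1 CPM, and the log2 fold change was 0.17 ± 0.15 (SE; edgeR adjusted p = 0.801). Without wild-type replicate 1 it was 0.27, without wild-type replicate 3 it was 0.08, and without knockout replicate 3 it was 0.03.

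The stretch of the Smad6 promoter below is shown because it holds the Smad palindrome GTCTAGAC, a sequence that SMAD3 and SMAD4 bind. Of the 6 genes whose windows are reported, only Smad6 holds it. The windows of Tgfbr3, Smad2, Smad4 and Smad7 are not reported here, so the palindrome may not be particular to Smad6. Windows of 300 bases around a start site were searched on both strands for that palindrome, for the CAGA box AGCCAGACA and for the GC-rich element GGCGCC. They occurred in 0.213%, 0.387% and 11.9% of 32851 RefSeq windows. The windows of Bmpr2, Bmpr1a and the first of 2 for Tgfbr1 held 1 GGCGCC each, and those of Smad3 and Tgfbr2 held none of these motifs. The Smad6 stretch is RefSeq's (GRCm38.p6, chr9:64022056-64022179, minus strand) and runs to the end of the palindrome, which is in capitals and reaches from 4 bases before the annotated start site to 4 bases after it. A match is a description of the letters and no evidence of binding.

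Smad6 promoter: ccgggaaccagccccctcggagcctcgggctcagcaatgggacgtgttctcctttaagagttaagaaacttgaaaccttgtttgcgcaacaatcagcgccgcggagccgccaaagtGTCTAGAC

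Smad7, which blocks both branches by occupying the type I receptor, varied most among the knockout libraries and nearly as much as Tgfbr1 among wild types. It was at 201, 134 and 86.3 CPM in the wild-type libraries and at 108, 171 and 158 CPM in the knockout libraries. Both the highest and the lowest library were wild type, so the knockout values lay inside the wild-type range. The means were 140 ± 57.5 and 146 ± 33.2 CPM, with a coefficient of variation of 40.9% in wild type and 22.8% in knockout. The log2 fold change was 0.06 ± 0.29 (SE; edgeR adjusted p = 0.968), with a 95% interval from a fold of 0.664 to 1.63. It was 0.41 without wild-type replicate 1, 0.03 without wild-type replicate 2, 0.23 without knockout replicate 1, −0.20 without wild-type replicate 3, −0.07 without knockout replicate 2 and −0.004 without knockout replicate 3, so these libraries set no direction for Smad7. The ratio of Smad7 to Smad6 counts was 1.10, 0.845 and 0.612 in wild type and 0.644, 1.07 and 0.744 in knockout.

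Levels were compared between genes after division by the longest annotated transcript length. Bmpr1a and Smad6 were highest, at a mean over the 6 libraries of 59.2 and 58.7 CPM per kb, and did not differ beyond their spread. Tgfbr1, Smad4 and Smad7 followed at 36.0, 35.0 and 33.4 CPM per kb, and then Tgfbr3, Bmpr2 and Tgfbr2 at 19.1, 19.0 and 18.1 CPM per kb, where neighbours within each trio were again closer than the spread of the libraries. Smad2 and Smad3 were lowest, at 8.84 and 5.02 CPM per kb. On this scale both type I receptors, Bmpr1a and Tgfbr1, stood above both type II receptors in the mean of each genotype. In wild-type replicate 1 alone, Bmpr2 (23.2 CPM per kb) exceeded Tgfbr1 (15.5). The order depends on the transcript models. The Bmpr2 gene of the deposited table spans 9392 bases more than the Bmpr2 model that gave its length, so the Bmpr2 level per kb may be overstated. With the median transcript length, Bmpr1a and Tgfbr1 kept the first and the third place, and the other 8 genes changed theirs. Tgfbr2 and Bmpr2 were then lowest, at 18.2 and 19.0 CPM per kb, below Smad2 (19.4) and Smad3 (42.3).

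Other receptors of the pathway were taken from a list written from textbook knowledge. This list and the lists of pathway genes below were written with earlier results of these data known. Acvr2a, an activin and BMP type II receptor gene, was at 12.3, 27.1 and 32.9 CPM in the wild-type libraries and at 42.4, 28.6 and 30.6 CPM in the knockout libraries. Bmpr1b, the second BMP type I receptor gene, was at 17.9, 37.9 and 48.4 CPM and at 57.7, 41.4 and 41.6 CPM. Both were lowest in wild-type replicate 1 and highest in knockout replicate 1, as the TGF-beta receptors were, with log2 fold changes of 0.48 and 0.42 that went to 0.17 and 0.11 without the former and to 0.29 and 0.25 without the latter. Without wild-type replicate 3 they were 0.78 and 0.74. Acvrl1 and Eng, the receptor and co-receptor genes best known from endothelium, were at −0.15 and −0.14. Acvrl1 was at −0.04 without wild-type replicate 1, and Eng at −0.09, −0.23 and −0.04 without wild-type replicate 2, knockout replicate 2 and knockout replicate 3. Acvr1, Rgma and Rgmb had log2 fold changes of 0.13, 0.18 and 0.20, and of 0.11, 0.13 and 0.05 without wild-type replicate 1. Of 9 such receptors and co-receptors with enough counts, fitted means were higher in knockout for 7 and lower for 2, and 0 passed in edgeR (median 0.13).

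The BMP-branch Smads did not move as one. Smad1 had a wild-type mean of 85.0 ± 11.5 and a knockout mean of 74.3 ± 9.86 CPM (−0.19 on the log2 scale), and Smad5 was at 43.9 ± 11.4 and 53.1 ± 4.32 CPM (0.27, and 0.07 without wild-type replicate 1). Smad1 was at −0.08, −0.10 and −0.29 without wild-type replicate 1, knockout replicate 1 and knockout replicate 2. Smad9, the least abundant of these 3 genes, was at 8.92, 11.3 and 10.6 CPM in the wild-type libraries and at 17.8, 12.8 and 15.4 CPM in the knockout libraries. Its groups did not overlap, and its log2 fold change of 0.57 ± 0.17 (SE) was 0.48 without wild-type replicate 1. Smad9 did not pass over all genes in edgeR (unadjusted p = 0.00822, adjusted p = 0.668).

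Over the 5 lists of pathway genes, Lrrc32, Tgfb2 and Inhbb had the smallest unadjusted edgeR p-values (3.2e-05, 0.00144 and 0.00148). Eln (0.00177), Fstl3 (0.00639), Cdkn2b (0.00811) and Smad9 (0.00822) followed, of which Eln and Cdkn2b are response genes and Smad9 is a signal carrier. The list of ligands, latent binding proteins and extracellular inhibitors was written with earlier results known, so its counts are a description and no test. In it, 18 of 26 had fitted means below wild type (median −0.21 on the log2 scale). Groups did not overlap for 6 of the 26 (23.1%), against 14.5% of all genes. Among them Inhbb, the gene of the activin beta B chain, was at 12.8, 10.8 and 14.7 CPM in the wild-type libraries and at 8.48, 5.34 and 6.41 CPM in the knockout libraries (−0.93), and Fstl3, which encodes a follistatin-like inhibitor of activins, was at 411 ± 28.4 and 300 ± 34.5 CPM (−0.45). Lrrc32, a docking receptor gene for latent TGF-beta, was at 174 ± 11.4 and 92.5 ± 8.35 CPM (−0.91), and Tgfb2, a ligand gene, was at 184 ± 28.4 and 113 ± 17.2 CPM (−0.71). In edgeR 0 of the 26 passed over all genes, and in DESeq2 Lrrc32, Tgfb2 and Inhbb fell (adjusted p = 4.02e-08, 0.0158 and 0.0291). Without wild-type replicate 1, edgeR called Lrrc32 (adjusted p = 0.0135).

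Regulators inside the cell showed a smaller spread of differences. Fitted means were higher in knockout for 18 of the 26 genes and lower for 8 (median 0.10, 0 called in edgeR); Skil and Pmepa1 are also in the list of response genes. Leaving out wild-type replicate 1 gave counts of 16 and 10 and a median of 0.02. Bambi, which encodes a decoy receptor without a kinase domain, was at 79.1, 68.1 and 65.5 CPM in the wild-type libraries and at 45.4, 63.0 and 53.6 CPM in the knockout libraries (−0.39, edgeR adjusted p = 0.775), with no overlap of the groups. Tgif1, a nuclear co-repressor gene of Smads, was at 0.36, and Skil, a Smad co-repressor and target gene, at 0.30 (0.16 without wild-type replicate 1 and 0.45 without wild-type replicate 3). Pmepa1, a target gene whose protein sequesters SMAD2 and SMAD3, was at −0.40, and at −0.09 without wild-type replicate 1, in which it reached 1229 CPM against 678 and 750 CPM in the other wild-type libraries.

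Genes that respond to the pathway had a lower fitted mean in 18 of 27 cases (median −0.20), and without wild-type replicate 1 in 17 of 27 (median −0.07). Their list, too, was written with earlier results known, so its counts are a description and no test. Groups did not overlap for 8 of the 27 (29.6%), against 14.5% of all genes, with 6 of the 8 lower in knockout and 2 higher. The latter were Id4 (0.24) and Hey1 (0.39), both BMP target genes, named here after their values were seen. Groups overlapped for Id1, Id2, Id3, Hes1 and Atoh8, which were at 0.05, 0.23, −0.13, 0.02 and 0.27. Without wild-type replicate 1 these were 0.29, 0.48, 0.10, 0.25 and 0.46. Of the 27 genes, Eln, the elastin gene (−0.94, and −0.64 without wild-type replicate 1), had the smallest p. Next came Cdkn2b, a cell cycle inhibitor gene (−0.67), and Ctgf (−0.66) and Cyr61 (−0.60), both matricellular protein genes. Cyr61 was at 1587, 1572 and 2962 CPM in the wild-type libraries and at 1281, 1473 and 1289 CPM in the knockout libraries, so its value owed much to wild-type replicate 3, and it was −0.23 without that library. The wild-type mean of Cdkn2b was 6.66 ± 0.667 CPM and its knockout mean 4.16 ± 0.677 CPM. In edgeR 0 of the 27 passed over all genes, and Eln fell in DESeq2 (adjusted p = 0.00562).

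**Figure D4:**
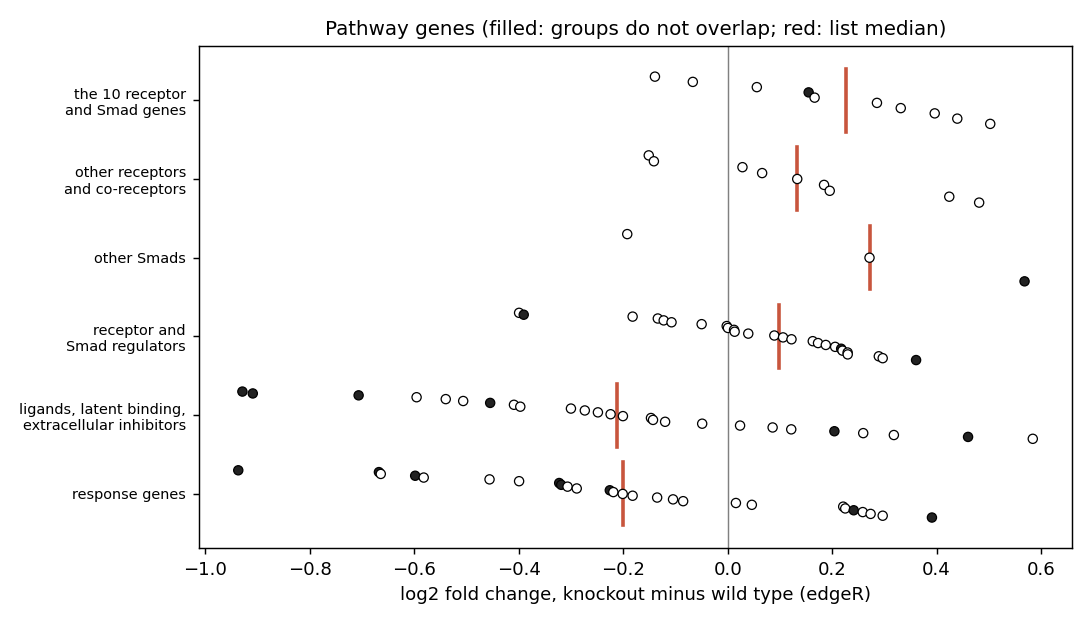
Log2 fold changes, knockout minus wild type, of the 10 genes and of 5 lists of other pathway genes; each point is 1 gene, filled where the libraries of the genotypes do not overlap, and red lines are list medians. Medians of the 3 receptor and Smad groups lie above 0 (0.23, 0.13 and 0.27), and those of the ligand list (−0.21) and the response list (−0.20) lie below it. Without wild-type replicate 1 (not drawn) these medians were 0.15, 0.11, 0.07, −0.26 and −0.07. The list of other Smads holds 3 genes.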

How the data were processed

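The table the authors deposited holds expected counts per gene, not normalised, a unit read from the values (65.4% were whole to within 0.01). Per the submitters' processing notes, reads were aligned with STAR 2.6 to mm10 and DESeq2 was used; the sources used here name no counting tool. Counts were rounded, filtered with filterByExpr and scaled with TMM. Genotypes were compared across all 15185 genes with edgeR 4.0.16 (robust quasi-likelihood test, R 4.3.3, Benjamini-Hochberg adjustment, threshold 0.05). The standard error of a log2 fold change was its size over the root of F. DESeq2 1.42.0 and limma voom 3.58.1 were alternatives. The fits were run on simulated data with the same spread for every gene and no outlying library. That check therefore does not cover a library such as wild-type replicate 1. The members and lists were chosen with earlier results of these data known. All members were named, with every other receptor and Smad tested and the 4 genes of smallest p in each other list. Id1, Id2, Id3, Id4, Hey1, Hes1 and Atoh8 were named outside this rule, after their values were seen. Log2 CPM used a prior count of 2. Lengths and 3′ UTRs came from GENCODE vM1, built on NCBIM37, and gave no coordinates. Gene ends are the deposited stop minus 1. RefSeq promoter windows were matched by symbol.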

Additional observations from a re-analysis of the deposited data

How the results depend on the processing

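Across 13 alternative settings for each of the 10 genes, 126 of 130 values kept their direction and none passed the threshold. The 4 that turned were Bmpr2 without wild-type replicate 1 (0.08) and Smad7 without wild-type replicate 3 (−0.20), knockout replicate 2 (−0.07) and knockout replicate 3 (−0.004); fewer libraries were fitted there, and the cause was not tested. With 1 library left out, Bmpr2 ran from −0.14 to 0.079 and Smad7 from −0.20 to 0.41. Among other named genes, Acvr2b turned without wild-type replicate 2 or knockout replicate 2 (range −0.10 to 0.28), and Acvr1b without wild-type replicate 3 or knockout replicate 3 (range −0.047 to 0.10). Called genes over the whole table numbered 0 with edgeR (955 at an unadjusted p under 0.05), 0 with limma voom, 69 with DESeq2, and 0 to 9 when 1 library was left out. With the replicate block the log2 fold change of Tgfbr1 was 0.59, and no call changed. Same-numbered libraries deviated with correlations of −0.27, −0.18 and −0.08. These values showed no pairing by number, but deviations centred within groups of 3 libraries cannot exclude one. With median transcript lengths, levels per kb became 88.4 (Tgfbr1), 34.3 (Tgfbr3), 250.4 (Bmpr1a), 19.4 (Smad2), 42.3 (Smad3), 42.1 (Smad4) and 107 (Smad7), since fewer bases divide the same counts. No annotated transcript of a gene held more 7mer or 8mer matches than its longest 3′ UTR.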
